A study of Mus musculus with 6 samples.

Results

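Vessels set their own tone through a small group of mediators made by endothelial cells, and 9 of the genes behind them are described here in tumor endothelial cells (TECs) of mice with forced endothelial Notch signaling. They are Nos3 for nitric oxide, Edn1, Ednrb and Ece1 for endothelin, Ptgs1, Ptgs2, Ptgis and Ptges for the prostaglandins, and Ace for angiotensin. The genes were taken by name for their roles, with results of these data already known, and each has 1 row among the 23473 rows of the deposited table that carry RefSeq gene names. Ptgs2 and Ednrb were higher in the NICeCA libraries and passed the test, each also under 14 of 18 alternative settings. Neither passed it without NICeCA replicate 2, without a filter on level, or once the level of endothelial markers was taken into account. The libraries also held RNA of other cells, whose part was not tested. Ptgs1 fell, but it only just passed the test and passed it under only 5 of 18 alternative settings. Edn1, Nos3, Ece1, Ace and Ptges did not pass the test, and Ptgis was too low to be tested.

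The samples were bulk RNA-seq libraries from Lewis lung carcinoma (LLC) tumors, a transplanted mouse lung cancer line, in C57BL/6 mice whose age the labels give as 8 weeks. The 3 control (Ctrl) mice are labelled wild type. The 3 NICeCA mice carried Cdh5-CreERT, a recombinase that tamoxifen activates in cells expressing the endothelial cadherin gene Cdh5, together with a Rosa26 allele in which a floxed stop precedes the intracellular domain of Notch1, so that Notch signaled without a ligand. Tamoxifen was given at 100 mg/kg for 5 days, and no source used here says whether the Ctrl mice received it. The methods give day 14 after inoculation for tumor collection, whereas the labels speak of different days. Cells were pulled from the digested tumors with beads against CD31, which leukocytes and platelets also carry, and the labels put their purity above 90%. Each library held 27793301 to 30769916 reads on RefSeq rows, as recovered from the deposited values. The values are RPKM, the reads of a row scaled to its length and to the total of the library, so levels can be compared between genes.

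Nitric oxide, made from arginine by the endothelial synthase Nos3, relaxes the muscle around a vessel and keeps platelets from sticking. Endothelin-1 is the opposing peptide: it is made from the product of Edn1 by the protease Ece1 and contracts vessels through the receptor Ednra on muscle, while the receptor Ednrb on endothelial cells clears it and calls forth nitric oxide. Prostaglandins begin with the cyclooxygenases, the constitutive Ptgs1 and the inducible Ptgs2, whose common product is turned into prostacyclin by Ptgis or into prostaglandin E2 by Ptges. Ace, on the endothelial surface, makes angiotensin II and destroys bradykinin.

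The transcript of the Rosa26 allele itself was not analysed here. The Notch1 row, which shares sequence with that transcript, read 14.3, 8.19 and 13.8 RPKM in Ctrl and 12.3, 13.6 and 12.6 RPKM in NICeCA, and the groups overlapped. Of 3 Notch targets, named here after their values were seen, Hey1 was called (log2 fold change 1.10 ± 0.27, SE, adjusted p = 0.0412), while Nrarp (1.05 ± 0.29, SE, adjusted p = 0.0519) and Hes1 (-0.16 ± 0.19, SE, adjusted p = 0.562) were not. The marker genes set a limit on the label of the cells as endothelial, since the macrophage list summed to far more than the endothelial list in every library. A list of 20 endothelial genes summed to 370, 481 and 890 RPKM in Ctrl and to 803 to 1015 RPKM in NICeCA, and all 20 had a positive log2 fold change, of which 2 passed the test. A list of 12 macrophage genes summed to 7058 to 10059 RPKM in Ctrl and 5438 to 9340 RPKM in NICeCA. Most of that sum came from Lyz2 and the C1q genes, and sums over different genes do not measure the shares of cell types. Neutrophil genes summed to 196 to 351 RPKM in Ctrl and 784 to 1883 RPKM in NICeCA, with 8 of 9 tested genes higher. Mural cell genes summed to 65.7 to 111 RPKM in Ctrl against 139 to 229 RPKM in NICeCA, and fibroblast genes to 362 to 591 RPKM against 204 to 370 RPKM. Platelet genes summed to 118 to 200 RPKM in Ctrl and 1179 to 1310 RPKM in NICeCA, nearly all of it from Pf4 and Ppbp, which other blood cells also express. T and NK cell genes (56.7 to 82.6 RPKM in Ctrl, 54.6 to 76.1 RPKM in NICeCA), erythroid genes (15.8 to 27.7 and 5.79 to 24.0 RPKM) and epithelial genes (7.43 to 13.4 and 7.29 to 9.33 RPKM) overlapped. No gene of these lists stood at 0 in all 6 libraries. In a bulk library, fewer cells of a type and less RNA in each cell cannot be told apart.

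**Figure D1:**
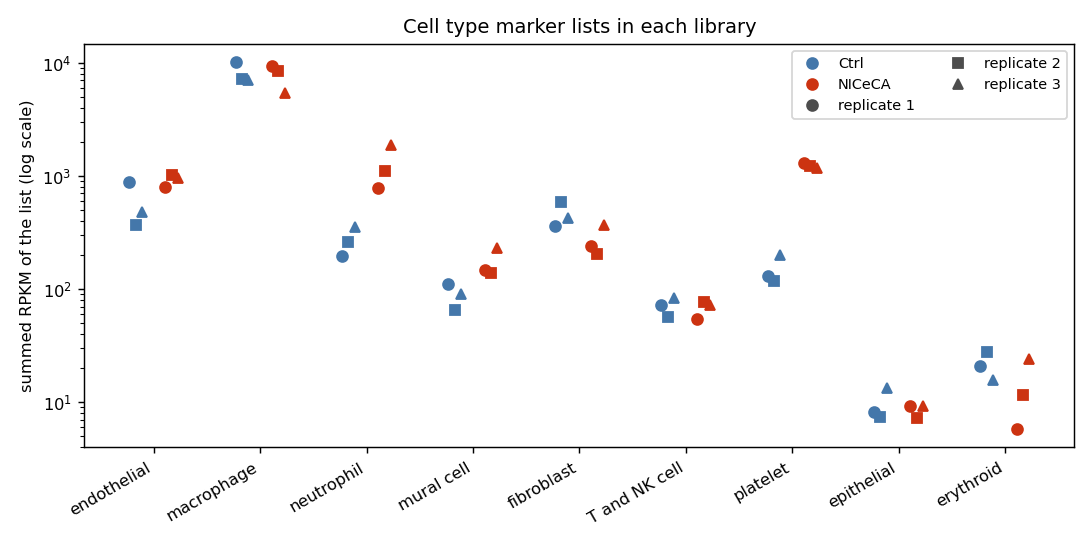
Summed RPKM (log scale) of 9 lists of cell type markers in each of the 6 libraries, Ctrl in blue and NICeCA in red, with a symbol for each replicate number. Neutrophil, mural cell and platelet lists are higher in all 3 NICeCA libraries, while the endothelial list of Ctrl replicate 1 (890 RPKM) reaches the NICeCA range.

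Across the RefSeq rows with a mean of at least 1 RPKM, 12320 were tested between the groups on log2(RPKM + 1) with limma, and a gene was called at a Benjamini-Hochberg adjusted p under 0.05. Among the 9 genes, 8 were tested and 3 were called, 2 higher and 1 lower, against 13.6% of all tested genes called in either direction, 5.88% higher and 7.68% lower. Their median log2 fold change was 0.47, and that of all tested genes was -0.05. The values of NICeCA and Ctrl libraries did not overlap for 4 of the 9, with NICeCA above for Ptgs2, Ednrb and Edn1 and below for Ptgs1, where 40.9% of all tested genes were separated, 16.5% with NICeCA above and 24.4% with NICeCA below. The exact permutation test of a single gene has 20 assignments of the libraries and cannot go below a two-sided p of 0.1.

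**Figure D2:**
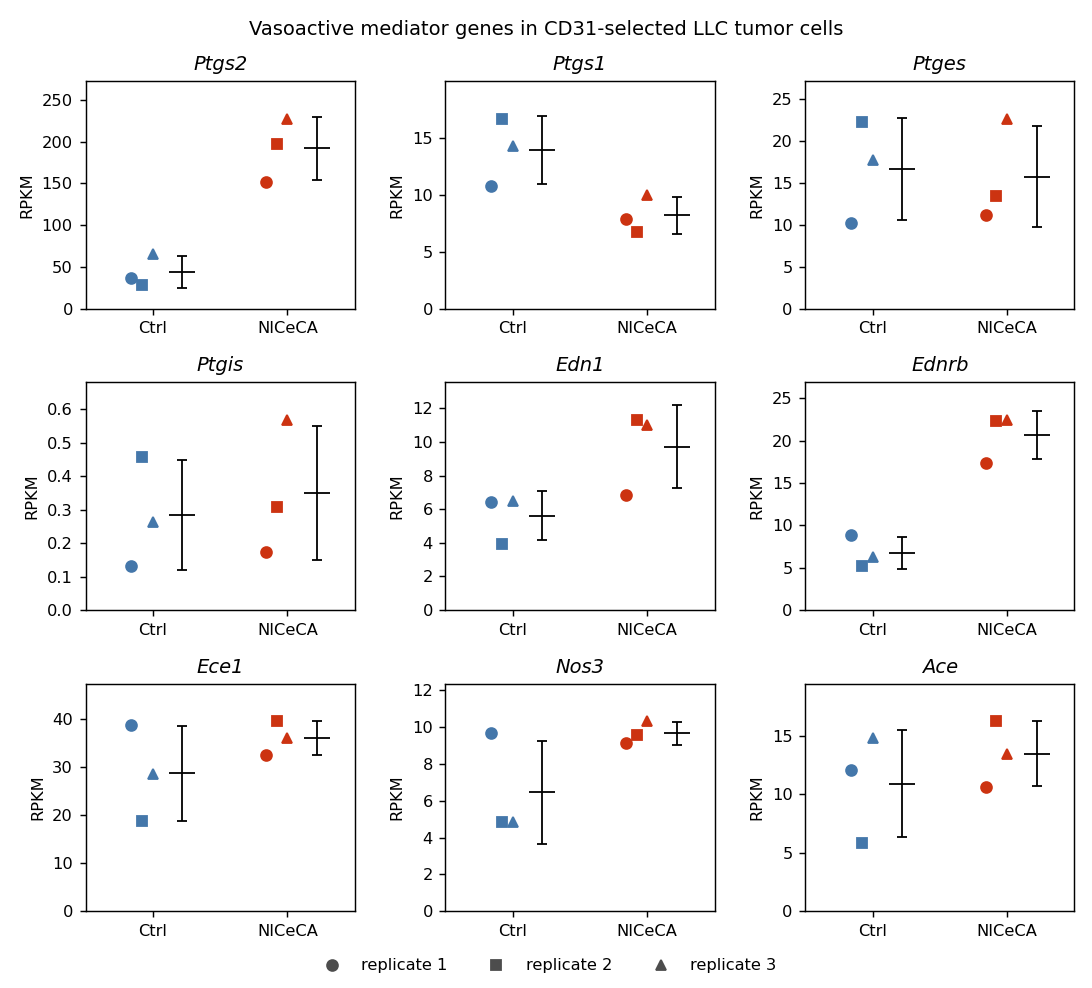
RPKM of the 9 vasoactive mediator genes in each library (symbols by replicate number) with the mean and SD of each group (horizontal bar and whiskers, n = 3), each panel on its own linear axis from 0. The groups are fully apart for Ptgs2, Ptgs1, Ednrb and Edn1, and for Nos3 the lone high Ctrl point is replicate 1 at 9.67 RPKM.

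Of the cyclooxygenase genes, Ptgs2 rose and Ptgs1 fell. Ptgs2 (chr1:150100124-150108012, plus strand; row positions are those of GRCm38), which encodes the inducible enzyme, stood at 37.2, 28.4 and 65.1 RPKM in Ctrl replicates 1 to 3 and at 152, 198 and 227 RPKM in NICeCA replicates 1 to 3. Every NICeCA library lay far above the highest Ctrl library, which was replicate 3. The means were 43.6 ± 19.2 RPKM (SD, n = 3) and 192 ± 37.9 RPKM (SD, n = 3), and the log2 fold change was 2.18 ± 0.29 (SE, 95% interval 1.50 to 2.86, adjusted p = 0.0111), a 4.54-fold rise. This was the 37th highest log2 fold change of the tested genes. At least 4684 reads stood behind each value, so counting error was at most 1.46%, far under the spread between mice. Without NICeCA replicate 2 the adjusted p was 0.0562.

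Ptgs1 (chr2:36230426-36252269, plus strand), the constitutive enzyme of endothelium and platelets, read 10.8, 16.7 and 14.3 RPKM in Ctrl and 7.88, 6.77 and 9.99 RPKM in NICeCA. All 3 NICeCA libraries lay below all 3 Ctrl libraries, although NICeCA replicate 3 and Ctrl replicate 1 came close. The means were 13.9 ± 2.95 RPKM and 8.22 ± 1.64 RPKM (SD, n = 3 each), and the log2 fold change was -0.69 ± 0.19 (SE, 95% interval -1.13 to -0.25, adjusted p = 0.0497). That p lies at the threshold: the gene was called under only 5 of 18 alternative settings, and among fits that left out 1 library it was called only without Ctrl replicate 1 or NICeCA replicate 3, with adjusted p from 0.0428 to 0.184 over the 6 fits. Its direction was the same in all 18. Some of these could not change it, since they alter only the filter, the blocking, the variance estimate or the rows included. An annotated transcript on the opposite strand, Gm43621, shares 148 exon bases with Ptgs1, and no source used here says whether the counting kept the strands apart.

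Within each library, the level of Ptgs2 relative to Ptgs1 does not depend on the total of the library. The ratio of the RPKM values was 3.45, 1.70 and 4.55 in Ctrl and 19.3, 29.2 and 22.7 in NICeCA. On the scale of log2(RPKM + 1) the difference between the groups was 2.87, with Ctrl at 1.51 ± 0.71 and NICeCA at 4.38 ± 0.28 (SD, n = 3 each), and the groups were fully apart (exact permutation p = 0.1, the smallest possible, and 0.25 after adjustment over the 5 ratios tested). Leaving out any 1 library left this difference between 2.48 and 3.17. The ratio restates the rise of Ptgs2 and the fall of Ptgs1. Since each gene's groups were already fully apart, in opposite directions, the ratio had to separate, and its p adds no evidence.

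The start regions of these 2 genes and of Ednrb are shown because they are the genes that were called. Each stretch holds 250 bases before the RefSeq start site and 30 bases from it, on the gene's own strand, from RefSeq on GRCm38.p6, at chr1:150099781-150100060 for Ptgs2, chr2:36230176-36230455 for Ptgs1 and chr14:103843672-103843951 (minus strand) for Ednrb. Capitals mark matches to CGTCA, the shared core of sites bound by CREB, or to its reverse complement TGACG.
Ptgs2: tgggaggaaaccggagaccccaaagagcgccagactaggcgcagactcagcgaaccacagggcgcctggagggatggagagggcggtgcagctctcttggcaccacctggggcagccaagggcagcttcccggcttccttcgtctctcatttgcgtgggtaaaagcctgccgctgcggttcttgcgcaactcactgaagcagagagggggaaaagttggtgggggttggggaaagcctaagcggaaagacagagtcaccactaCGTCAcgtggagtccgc
Ptgs1: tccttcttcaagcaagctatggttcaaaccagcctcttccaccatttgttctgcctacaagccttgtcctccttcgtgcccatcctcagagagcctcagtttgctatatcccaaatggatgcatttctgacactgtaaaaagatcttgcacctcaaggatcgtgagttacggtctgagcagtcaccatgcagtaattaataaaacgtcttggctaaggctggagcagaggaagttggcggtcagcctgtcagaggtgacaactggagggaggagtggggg
Ednrb: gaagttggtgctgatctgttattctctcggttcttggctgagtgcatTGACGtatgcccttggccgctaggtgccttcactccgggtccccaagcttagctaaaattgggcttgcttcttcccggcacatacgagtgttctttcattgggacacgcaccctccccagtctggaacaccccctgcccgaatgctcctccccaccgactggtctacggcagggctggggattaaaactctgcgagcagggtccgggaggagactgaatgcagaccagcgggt
The Ptgs2 start site used by RefSeq lies 93 bases upstream of the start of the deposited row, that of Ptgs1 is the same as the row's, and that of Ednrb lies 775 bases inside the row. CGTCA on either strand was present in 20.8% of 32851 RefSeq promoter windows of 300 bases, and in those of Ptgs2 and Ednrb. It lay at bases 13 to 17 in Ptgs2 and, on the minus strand of the gene, at bases -203 to -199 in Ednrb, with the start base counted as 0. GTGGGAA, the core to which the Notch partner RBPJ binds, was in 6.38% of all windows and was found for Ece1 and Ptges, neither of which was called, and not in the windows of Ptgs2, Ptgs1 and Ednrb. Of the other motifs searched on both strands, GGGA followed after any 4 bases by CC (NF-kB, 20.7% of windows) was found for Ace and Ece1, TATAAA (13.6%) for Ace, GATAA (GATA factors, 25.4%) for Edn1, and TGANTCA (AP-1, 7.81%) for none. RefSeq windows were matched for 7 of the 9 genes, 11 windows in all, leaving out Nos3 and Ptgis. A match is a match of letters and does not show that a factor binds.

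The enzymes that act on the cyclooxygenase product were not called. Ptges (chr2:30889471-30903297, minus strand), which makes prostaglandin E2, read 10.1, 22.2 and 17.7 RPKM in Ctrl and 11.2, 13.4 and 22.6 RPKM in NICeCA. The groups covered the same range, and within each group the highest library was about as far from the lowest as in the other group. The means were 16.7 ± 6.08 RPKM and 15.7 ± 6.04 RPKM (SD, n = 3 each), with a log2 fold change of -0.073 ± 0.32 (SE, 95% interval -0.81 to 0.66, adjusted p = 0.889), so that an appreciable change either way was within the interval. Ptgis (chr2:167203196-167240537, minus strand), the prostacyclin synthase of endothelium and smooth muscle, read 0.132, 0.459 and 0.264 RPKM in Ctrl and 0.172, 0.307 and 0.567 RPKM in NICeCA. These values rest on as few as 9 reads per library and at most 37, and a difference was not detectable at this depth (exact permutation p = 0.7). The ratio of Ptgis to Ptges ranged from 0.0130 to 0.0207 in Ctrl and from 0.0154 to 0.0251 in NICeCA. On the log2(RPKM + 1) scale, on which the low level of Ptgis counts for little, the difference was 0.14 (exact permutation p = 0.8, adjusted over the 5 ratios 1).

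Over the 26 genes listed for the prostanoid pathway, 19 were tested, 3 were higher, 1 was lower, and the median log2 fold change was 0.012. Beside Ptgs2 and Ptgs1, the called genes were Pla2g4a and Ptgr1. Among all tested genes, 5.88% were called higher and 7.68% lower. Pla2g4a, the cytosolic phospholipase that releases arachidonic acid, the substrate of the cyclooxygenases, rose from 4.51 to 7.89 RPKM in Ctrl to 10.3 to 11.6 RPKM in NICeCA (log2 fold change 0.85 ± 0.18, SE, adjusted p = 0.0329). Pla2g4a was called under 10 of 18 alternative settings. Ptgr1, a reductase that inactivates prostaglandins and leukotriene B4, rose from 6.07 to 7.07 RPKM in Ctrl to 13.6 to 17.6 RPKM in NICeCA (1.10 ± 0.13, SE, adjusted p = 0.0105). Thromboxane synthase, Tbxas1, which is abundant in platelets and macrophages, ranged from 18.4 to 28.6 RPKM in Ctrl and from 11.3 to 25.1 RPKM in NICeCA and was not called (-0.35 ± 0.29, SE, adjusted p = 0.422). Neither of the receptors named, Ptger4 for prostaglandin E2 (-0.35 ± 0.15, SE, adjusted p = 0.151) and Ptgir for prostacyclin (0.012 ± 0.22, SE, adjusted p = 0.977), passed the test. Hpgd, which breaks prostaglandins down, read 0.925 to 1.24 RPKM in Ctrl and 0.685 to 1.30 RPKM in NICeCA and fell below the filter.

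The profile of Ptgs2 was also compared with that of every tested gene. The 3 genes whose profile over the 6 libraries lay nearest to that of Ptgs2, by the root mean square distance of log2(RPKM + 1) after centring each gene on its own mean, were Slc7a11 (cystine transporter, distance 0.11), Arg2 (mitochondrial arginase, 0.12) and Tnfrsf9 (costimulatory receptor of lymphocytes, 0.13), against a median distance of 1.18 over all tested genes. Each of them was called higher, with log2 fold changes of 2.01 for Slc7a11, 2.29 for Arg2 and 2.31 for Tnfrsf9. Macrophages and neutrophils can also express Ptgs2. Of the 12 macrophage markers, 3 were called higher (Cd68, Cd14 and Fcgr1) and none lower, 5 had a positive and 7 a negative log2 fold change with a median of -0.14, and the summed level, most of it from Lyz2 and the C1q genes, overlapped between the groups. In contrast, the neutrophil list was higher in every NICeCA library. The part of these cells in the Ptgs2 rise was not tested.

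Of the endothelin genes, the receptor rose. Ednrb (chr14:103814615-103844476, minus strand), the endothelial receptor whose start region is shown above, read 8.87, 5.19 and 6.22 RPKM in Ctrl and 17.4, 22.3 and 22.4 RPKM in NICeCA. The lowest NICeCA library stood far above the highest Ctrl library, which was replicate 1. The means were 6.76 ± 1.90 RPKM and 20.7 ± 2.86 RPKM (SD, n = 3 each), and the log2 fold change was 1.50 ± 0.19 (SE, 95% interval 1.06 to 1.95, adjusted p = 0.0109), a 2.83-fold rise on that scale. Its adjusted p was 0.0553 without NICeCA replicate 2. The genes nearest to its profile were Plk2 (a polo-like kinase, distance 0.11), Clec4d (a lectin receptor of myeloid cells that also stands in the neutrophil list, 0.14) and Tm4sf19 (0.17), against a median of 0.83. The part of other cells in the Ednrb rise was not tested.

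Edn1 (chr13:42301270-42307989, plus strand), the gene of the endothelin-1 precursor, read 6.41, 3.92 and 6.50 RPKM in Ctrl and 6.87, 11.3 and 11.0 RPKM in NICeCA. The groups did not overlap, but NICeCA replicate 1 stood just above the 2 higher Ctrl libraries. The means were 5.61 ± 1.46 RPKM and 9.73 ± 2.48 RPKM (SD, n = 3 each), and the log2 fold change of 0.70 ± 0.23 (SE, 95% interval 0.17 to 1.23) missed the threshold (adjusted p = 0.0760), with adjusted p from 0.0645 to 0.979 over 18 alternative settings. Ece1 (chr4:137862237-137965229, plus strand), the converting enzyme, read 38.7, 18.8 and 28.6 RPKM in Ctrl and 32.5, 39.5 and 36.1 RPKM in NICeCA. Ctrl replicate 1 lay among the NICeCA libraries and the other 2 Ctrl libraries lay below them. Its means were 28.7 ± 9.94 RPKM and 36.0 ± 3.48 RPKM (SD, n = 3 each), and the log2 fold change was 0.37 ± 0.24 (SE, 95% interval -0.18 to 0.92, adjusted p = 0.295).

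The ratio of the ligand's gene to that of its endothelial receptor was lower in every NICeCA library. Edn1 relative to Ednrb read 0.723, 0.756 and 1.05 in Ctrl and 0.395, 0.507 and 0.492 in NICeCA, a difference of -0.81 on the log2(RPKM + 1) scale with the groups fully apart (exact permutation p = 0.1, adjusted over the 5 ratios 0.25). Leaving out any 1 library left the difference between -0.90 and -0.66. Of the 13 genes in the endothelin list 7 were tested, and Ednrb was the only one called, where 13.6% of all tested genes were called. The list's median log2 fold change was 0.37. Ednra, the receptor on muscle and other mural cells, read 0.469 to 1.27 RPKM in Ctrl and 1.30 to 1.68 RPKM in NICeCA (0.55 ± 0.20, SE, adjusted p = 0.0953), near the filter and beside a mural list that was higher in every NICeCA library.

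**Figure D3:**
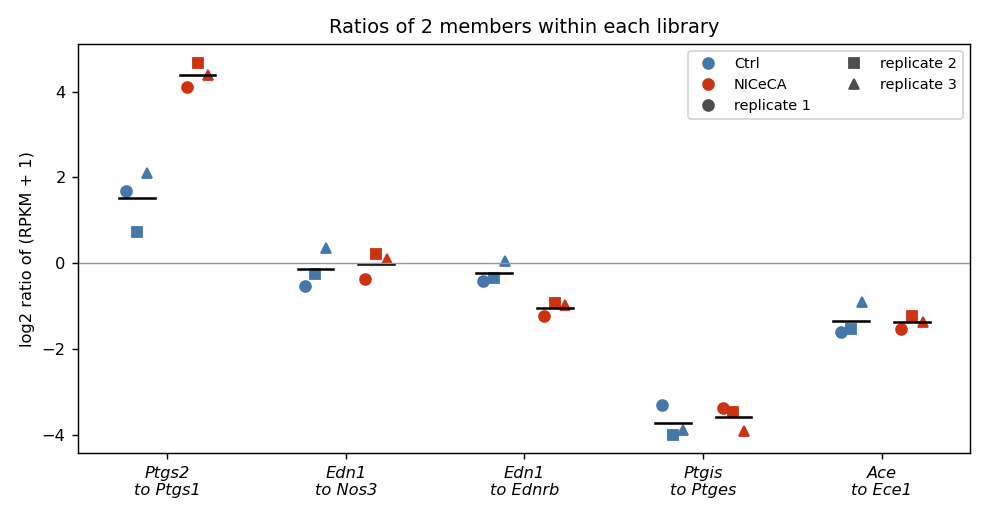
Log2 ratio of RPKM + 1 between 2 of the genes within each library, Ctrl in blue, NICeCA in red and group means as bars (n = 3). The ratio Ptgs2 to Ptgs1 is higher in all NICeCA libraries (means 1.51 and 4.38), Edn1 to Ednrb is lower, and the other 3 ratios overlap. The separation of Ptgs2 to Ptgs1 follows from the separate changes of its 2 genes.

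Nos3 (chr5:24364819-24384474, plus strand), the endothelial nitric oxide synthase, was not called. It read 9.67, 4.85 and 4.86 RPKM in Ctrl and 9.10, 9.55 and 10.3 RPKM in NICeCA. The NICeCA libraries were close together, while the Ctrl libraries split, with replicate 1 inside the NICeCA range and the other 2 well below it. The means were 6.46 ± 2.78 RPKM and 9.65 ± 0.603 RPKM (SD, n = 3 each), and the log2 fold change was 0.57 ± 0.23 (SE, 95% interval 0.038 to 1.11, adjusted p = 0.122). Ctrl replicate 1 decided the call: without it the log2 fold change was 0.86 with an adjusted p of 0.0255. The same library had the highest endothelial marker level of the Ctrl group, with a mean log2(RPKM + 1) over the 20 markers of 5.07, against 3.85 and 4.17 in Ctrl replicates 2 and 3 and 4.84, 5.25 and 5.15 in NICeCA. The part of endothelial content in the Nos3 values was not tested. Nos3 shares 294 exon bases with Atg9b on the opposite strand, whose row read 1.88 to 2.99 RPKM in Ctrl and 0.813 to 1.09 RPKM in NICeCA, and 1040 with the antisense transcript Gm15587, so its level is uncertain by as much as these add. The nearest profiles to that of Nos3 were Bcam (a laminin receptor, distance 0.083), Jag2 (a Notch ligand, 0.091) and Atp9a (0.092), with a median of 0.49 over all tested genes, and none of these 3 was called.

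The ratio of Edn1 to Nos3 was 0.663, 0.809 and 1.34 in Ctrl and 0.755, 1.18 and 1.07 in NICeCA. The difference on the log2(RPKM + 1) scale was 0.12 (exact permutation p = 0.8, adjusted over the 5 ratios 1), and leaving out 1 library gave -0.070 to 0.37.

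In the nitric oxide list, 28 genes, 22 tested, the median log2 fold change was 0.18 and 4 genes were called, all of them higher. They were Arg1, Arg2, Nos2 and Gch1. Among all tested genes, 5.88% were called higher. Arg1, the cytosolic arginase that competes with the synthases for arginine, rose from 182 to 468 RPKM in Ctrl to 1331 to 1704 RPKM in NICeCA (log2 fold change 2.36 ± 0.31, SE, adjusted p = 0.0111). Arg2 rose from 2.46 to 5.70 RPKM to 18.8 to 24.6 RPKM (2.29 ± 0.24, SE, adjusted p = 0.00922). Nos2, the inducible synthase of macrophages, rose from 3.004 to 7.07 RPKM to 13.5 to 23.8 RPKM (1.75 ± 0.28, SE, adjusted p = 0.0192). Gch1, which makes the synthases' cofactor tetrahydrobiopterin, rose from 8.38 to 13.2 RPKM to 15.8 to 18.7 RPKM (0.63 ± 0.17, SE, adjusted p = 0.0472), but it was called under only 7 of 18 alternative settings and in 1 of 6 fits that left out a library. Arg1 and Nos2 are also expressed by tumor macrophages and neutrophils, whose marker levels are given above, and the part of these cells in these rises was not tested. Cav1, the caveolar protein that holds Nos3 inactive, read 85.7 to 123 RPKM in Ctrl and 82.7 to 146 RPKM in NICeCA and was not called (0.19 ± 0.23, SE, adjusted p = 0.583).

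Ace (chr11:105967945-105989964, plus strand) read 12.0, 5.84 and 14.8 RPKM in Ctrl and 10.6, 16.2 and 13.4 RPKM in NICeCA. The groups overlapped, and the lowest value was that of Ctrl replicate 2. The means were 10.9 ± 4.57 RPKM and 13.4 ± 2.78 RPKM (SD, n = 3 each), with a log2 fold change of 0.35 ± 0.30 (SE, 95% interval -0.35 to 1.04, adjusted p = 0.439). Without Ctrl replicate 2 the log2 fold change was -0.0090. Ace shares 295 exon bases with Gm11651 on the opposite strand, and its level is uncertain by what that transcript adds. Such sharing was 156 bases for Ptgis (1110018N20Rik) and 35 for Edn1 (Gm47118). The ratio of Ace to Ece1, both surface metalloproteases, was 0.311 to 0.517 in Ctrl and 0.328 to 0.410 in NICeCA and did not differ beyond its spread (difference -0.025 on the log2 scale, exact permutation p = 1, adjusted over 5 ratios 1). Of the 22 angiotensin and kinin genes 11 were tested, with a median log2 fold change of -0.019. In the main fit, limma on log2(RPKM + 1) called 0 of them, and 2 had an unadjusted p under 0.05. The count called was 1 with a filter of 5 RPKM, with trimmed mean scaling, with limma voom on the recovered reads, or without NICeCA replicate 3. The angiotensin receptor Agtr1a, which mural cells carry, read 0.209 to 0.370 RPKM in Ctrl and 0.707 to 1.31 RPKM in NICeCA, below the filter.

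**Figure D4:**
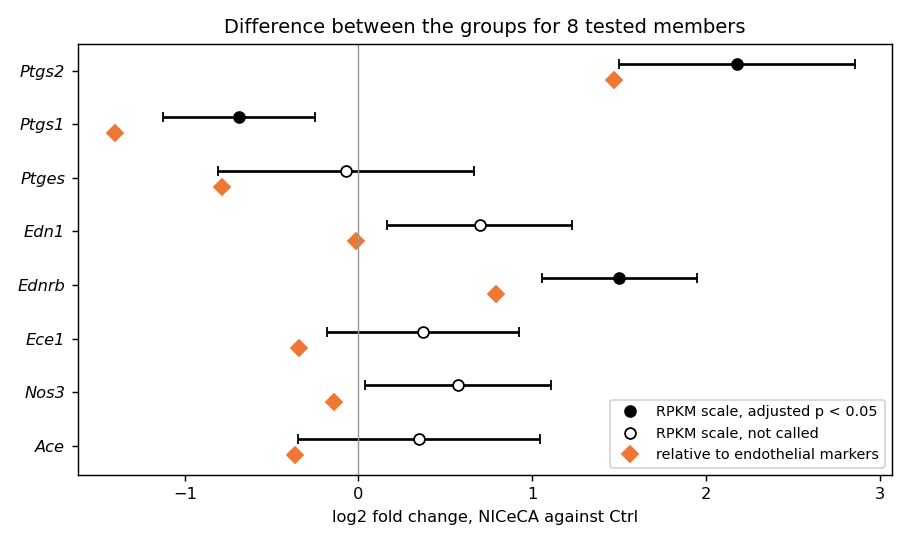
Log2 fold change of NICeCA against Ctrl for the 8 tested genes, with the 95% interval (circles, filled where the adjusted p was under 0.05) and with each library's mean over 20 endothelial markers subtracted (orange diamonds, no interval drawn). Ptgs2 (2.18) and Ednrb (1.50) lie to the right and Ptgs1 (-0.69) to the left, and subtraction moves every gene to the left.

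Because the endothelial marker level differed between libraries (a mean difference of 0.71 on the log2 scale, exact permutation p = 0.2), each gene was also set against it. Relative to the mean of the 20 markers, the log2 difference was 1.47 for Ptgs2 (adjusted p = 0.0560), 0.79 for Ednrb (adjusted p = 0.221) and -1.40 for Ptgs1 (adjusted p = 0.0647). The NICeCA and Ctrl libraries remained fully apart for these 3 genes. For Ptgs1, though, Ctrl replicate 1 (-1.51) lay close to NICeCA replicates 1 and 3 (-1.68 and -1.69), while Ctrl replicates 2 and 3 stood at 0.29 and -0.24. The share of all tested genes fully apart on this scale was not counted. This scale moved the median log2 difference of all tested genes to -0.76. For Edn1 the difference was -0.016, for Nos3 -0.14, for Ace -0.37 and for Ptges -0.79, and the groups overlapped for all 4. For Ece1 it was -0.34 (adjusted p = 0.558), with every NICeCA library below every Ctrl library. The gap was narrow, from 0.23 in NICeCA replicate 1 to 0.24 in Ctrl replicate 1. This scale assumes that the markers themselves do not respond to Notch, which was not tested.

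The order of the levels also shifted. In Ctrl the mean levels ran Ptgs2, Ece1, Ptges, Ptgs1, Ace, Ednrb, Nos3, Edn1 and Ptgis from highest to lowest, and each neighbouring pair overlapped in range except Edn1 and Ptgis. In NICeCA the order was Ptgs2, Ece1, Ednrb, Ptges, Ace, Edn1, Nos3, Ptgs1 and Ptgis, in which Ednrb had moved up and Ptgs1 down to next to last. There the ranges of Ptgs2 and Ece1, of Ece1 and Ednrb, and of Ptgs1 and Ptgis did not overlap, and the other neighbours did.

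The profiles nearest to the remaining genes did not pass the test, with the exception of Gem. For Ece1 they were Prkch (a protein kinase C), Gimap1 and Gimap5 (lymphoid GTPases) at distances of 0.070, 0.073 and 0.075, for Ace Selp (P-selectin of endothelium and platelets), Hs3st1 and Gimap4 at 0.099, 0.10 and 0.11, and for Edn1 Tspan2, Gem and Mir132 at 0.057, 0.11 and 0.12. For Ptges they were Gpx8, Fgf7 (a fibroblast growth factor made by stromal cells) and Mir3962 at 0.10, 0.12 and 0.13, and for Ptgs1 Arhgap6, Snhg4 and 2310061I04Rik at 0.020, 0.035 and 0.036. The median distance of all tested genes to these 5 profiles was 0.42 to 0.51. The 3 genes nearest to Ptgs1 lay just over the threshold (limma adjusted p of 0.0519, 0.0675 and 0.0586). Ptgs1 itself was called at 0.0497. With 6 libraries, such nearness describes these libraries and no more.

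Among 23 other vasoactive genes, such as purine receptors, adrenomedullin and shear-responsive genes, 20 were tested, 5 were higher and 2 were lower, and the median log2 fold change was 0.58. Over all tested genes, 5.88% were called higher and 7.68% lower. Kcnj2, a potassium channel that hyperpolarizes endothelium, rose from 1.75 to 3.45 RPKM in Ctrl to 5.70 to 9.72 RPKM in NICeCA (1.33 ± 0.23, SE, adjusted p = 0.0211). Nt5e, which makes adenosine outside the cell, rose by 1.17 ± 0.28 (SE, adjusted p = 0.0388) and Adora2b, an adenosine receptor, by 0.92 ± 0.21 (SE, adjusted p = 0.0373). P2ry2, a receptor for ATP and UTP, rose by 0.90 ± 0.14 (SE, adjusted p = 0.0178) and Adm, the vasodilator adrenomedullin, by 0.88 ± 0.23 (SE, adjusted p = 0.0466). Klf2, the transcription factor that laminar flow induces and that drives Nos3 in endothelium, fell from 85.2 to 131 RPKM in Ctrl to 50.5 to 62.7 RPKM in NICeCA (-0.79 ± 0.19, SE, adjusted p = 0.0376). Piezo1, a stretch-gated channel named here after its values were seen, had a log2 fold change of -0.47 ± 0.12 (SE, adjusted p = 0.0449), which was -0.19 with the trend on gene length removed and was called in 0 of 6 fits that left out a library. Of 18 alternative settings, Kcnj2 was called under 14, P2ry2 under 13, Nt5e and Klf2 under 9 each, Adora2b and Adm under 8 each and Piezo1 under 7.

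**Figure D5:**
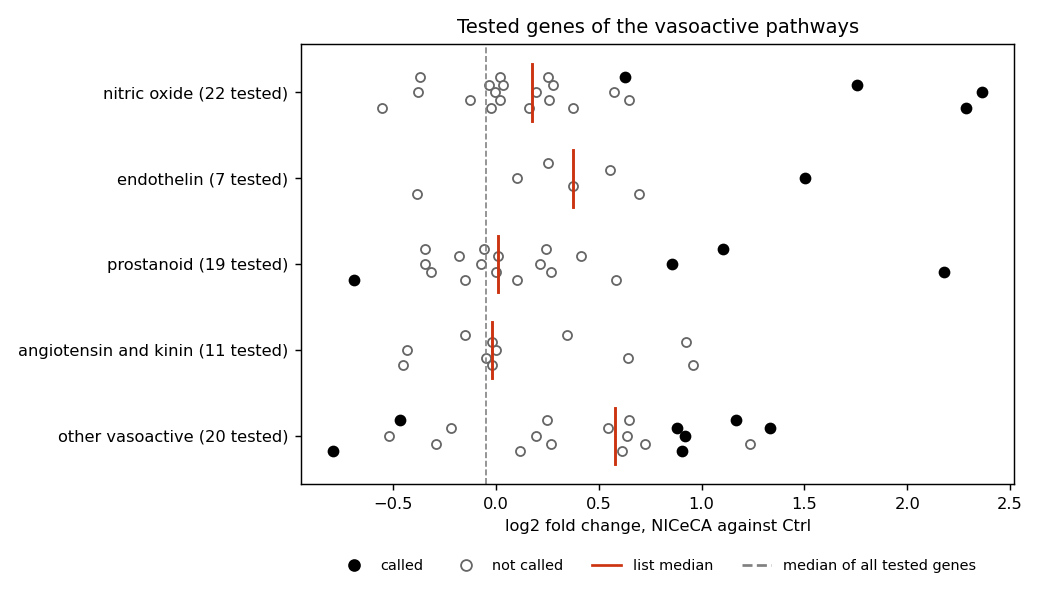
Log2 fold change of NICeCA against Ctrl for each tested gene of 5 vasoactive lists (filled where called), with the list median in red and the median of all 12320 tested genes (-0.05) as a dashed line. Called genes lie mostly to the right, 13 of 16, where 43.4% of all called genes were higher, and no gene of the angiotensin and kinin list is filled.

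Over the 5 lists together, 79 genes were tested and 16 were called, 20.3%, with 13 higher and 3 lower. Without the 9 genes, 71 were tested and 13 were called, 18.3%. These shares are a description and stand beside the 13.6% of all tested genes. Higher genes made up 81.2% of the 16 calls in the 5 lists and 43.4% of all 1671 calls. The latter share depended on the scaling, as given at the end, and no test was run on the difference. The lists were written from general knowledge with earlier results of these data known.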

How the data were processed

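The authors deposited RPKM values for 56826 rows (23473 RefSeq and 33353 FANTOM3 transcript models, the latter left out of the main comparison), 1 column per library, without pooling. RNA was depleted of ribosomal RNA and sequenced in paired reads of 150 bases. The submitters' processing notes name TopHat2 and mm9, but the row positions are those of GRCm38. No source used here gives the counting tool or its strand setting. Read numbers were recovered from RPKM and row length (100% whole within 0.05 for values under 1000 reads).

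From the deposited RPKM, log2(RPKM + 1) of RefSeq rows with a mean of at least 1 RPKM was compared with limma 3.58.1 in R 4.3.3 (mean-variance trend, two-sided, Benjamini-Hochberg adjustment over 12320 genes). A fold change on this scale understates that of low genes. The study's text names no test for these libraries. The members, lists and alternatives were chosen with earlier results of these data known. By the methods, every library was 1 mouse. No library was a copy of another. The code was tested on simulated data. Named genes were the 9 members, up to 6 called genes per list, 11 genes that act on a member or its product (1 is not reported here), and the 3 nearest profiles of each tested member. Notch1, 3 Notch targets, Piezo1 and single markers are named outside this rule. Alternatives covered a replicate block, each library left out, filters, pseudocount, scaling, variance model, voom on recovered reads, gene length, FANTOM3 rows and an endothelial covariate, and values relative to the endothelial marker mean were added after seeing the data. Promoter windows on chromosome 18 were left out of the motif shares.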

Additional observations from a re-analysis of the deposited data

Results flagged for a closer look

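One value lies outside the comparisons above. A FANTOM3 transcript model within the span of Ednrb (chr14:103832353-103833884), 0% of whose span lies in exons of Ednrb, read 0.213 to 0.251 RPKM in Ctrl libraries and 0.411 to 0.894 RPKM in NICeCA libraries. The group means of log2(RPKM + 1) differed by 0.40. The model was picked out because it is a signal in rows left out of the comparisons that was higher in every NICeCA library than in every Ctrl library. No test was run on it. It lies on the same strand as Ednrb, since only models on a gene's own strand were looked up.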

How the results depend on the processing

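The direction of Ptgs2, Ednrb and Ptgs1 was kept under all 18 alternatives, and Ptgs2 and Ednrb were each called under 14 of them. Alternatives that alter only the filter, the blocking, the variance estimate or the rows included could not change a direction. With 3 mice a group, calls depended on single libraries: leaving out 1 library gave 27 to 1661 genes called (1671 with all 6), 0 to 4 members and 1 to 16 vasoactive genes, the lowest each time without NICeCA replicate 2 (27 genes, 26 of them higher; by limma 3 members had an unadjusted p under 0.05). Without NICeCA replicate 1 there were 105 genes and 5 vasoactive genes called, without Ctrl replicate 2 there were 379 and 9, and without Ctrl replicate 1 there were 1035 genes.

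The same-numbered libraries did not deviate together (correlations of 0.12, -0.34 and -0.18 between Ctrl and NICeCA libraries of the same number), and not every library correlated best with its own number, so the numbers were not taken as pairs. The study's methods speak of 3 pairs of mice, without saying which libraries they are. With the replicate block, 536 genes, 2 members and 9 vasoactive genes were called, and Ptgs1 (-0.69) had an adjusted p of 0.0802. Other calls not made with the block were Nt5e (0.0511), Adora2b (0.0513), Pla2g4a (0.0561), Klf2 (0.0563), Gch1 (0.0931) and Piezo1 (0.112). Without a filter, 51 genes, 0 members (4 at an unadjusted p under 0.05 in limma) and 0 vasoactive genes (40 unadjusted) were called out of 23473 tested, and Ptgs2 (2.18), Ednrb (1.50) and Ptgs1 (-0.69) had adjusted p of 0.0802, 0.0688 and 0.136. Quantile normalization called 771 genes, the removal of the length trend 561 genes and 10 vasoactive genes, and FANTOM3 rows raised the count to 3211 of 23670 rows.

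With the endothelial marker mean as a covariate, limma called 0 genes (2130 at an unadjusted p under 0.05), 0 members (2 unadjusted) and 0 vasoactive genes (15 unadjusted), and the values were 2.06 for Ptgs2 (adjusted p = 0.143), 1.09 for Ednrb (0.0835) and -0.38 for Ptgs1 (0.378). Ece1 (-0.15), Ace (-0.089), Ptges (0.39) and Cav1 (-0.20) changed sign. Relative to the endothelial marker mean, 540 genes (34 higher), 0 members (2 at an unadjusted p under 0.05 in limma) and 3 vasoactive genes were called, with Ptgs2 at 1.47, Ednrb at 0.79 and Ptgs1 at -1.40. There Nos3 (-0.14), Edn1 (-0.016), Ece1 (-0.34), Ace (-0.37), Gch1 (-0.084), Cav1 (-0.52), Ednra (-0.16) and Ptgir (-0.70) changed sign, as the scale moved the median of all genes to -0.76.

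Ptgs1 also missed the threshold with a pseudocount of 0.1 (-0.75), quantile normalization (-0.64), trimmed mean scaling (-0.63), limma without the trend (-0.69) and the length trend removed (-0.66), and leaving out 1 library gave -0.85 to -0.56. Leaving out 1 library gave 1.92 to 2.51 for Ptgs2, 1.35 to 1.69 for Ednrb, 0.43 to 0.86 for Nos3, -0.37 to 0.16 for Ptges, -0.0090 to 0.59 for Ace and -0.12 to 0.26 for Ptgir, and for the ratios -0.070 to 0.37 for Edn1 to Nos3 and -0.15 to 0.20 for Ace to Ece1. Ptges was 0.0064 with the length trend removed, and Cav1 was -0.16 under quantile normalization. Except as the construction of a setting shows, the causes of these changes were not tested.

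The share of higher genes among all calls was 43.4% as deposited, 59.0% under trimmed mean scaling, 57.8% under quantile normalization, 68.3% with the length trend removed, 6.3% relative to the markers and 32.0% with FANTOM3 rows.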
